A study of Mus musculus with 9 samples.

Results

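Ceramides are the sphingolipids that, with cholesterol and free fatty acids, form the water barrier between the cornified cells of the epidermis. This report follows 35 genes of that pathway, taken by name from the 22399 rows of the expression table: 8 genes of fatty acid elongation, 4 of sphingoid base synthesis, 7 ceramide synthases and desaturases, 4 genes that add or remove head groups, 5 that break down ceramide and sphingosine, and 7 of the omega-acylceramide pathway and the lipid envelope. RNA was sequenced from basal keratinocytes of mouse plantar skin, sorted as CD49f positive (the integrin alpha 6 chain of basal cells) and CD34 negative (CD34 marks hair follicle stem cells). All mice were wild type C57BL/6. Control mice were 5 months old and ate a normal diet, HFD mice were 5 months old and ate a high-fat diet, and aged mice were 24 months old with no diet given in the labels. Each group had 3 libraries, and nothing in the labels says whether these came from separate mice, so the p-values speak only of the spread among these libraries, which could be technical. Values are FPKM (fragments per kilobase of transcript and per M fragments sequenced). A gene was tested if its mean over the 9 libraries was at least 1 FPKM, which 33 of the 35 genes and 10367 genes in all reached.

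Ceramide synthesis starts when serine palmitoyltransferase joins serine to a fatty acyl-CoA to make a sphingoid base. A ceramide synthase then attaches a second fatty acid, whose length is set beforehand by an elongation cycle in the endoplasmic reticulum, and a desaturase completes the ceramide. In differentiating keratinocytes, ultra-long fatty acids are omega-hydroxylated, built into acylceramides, loaded into lamellar granules by a lipid transporter and, after oxidation by lipoxygenases, bound to the cornified envelope. Head groups convert ceramide into glucosylceramide or sphingomyelin for storage and transport, and ceramidases release sphingosine. Inherited loss of several acylceramide genes causes ichthyosis.

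Basal cell transcripts were abundant: summed levels of 11 basal keratinocyte markers, Krt5 and Krt14 the most abundant, were 24008 to 31957 FPKM per library. Itga6, the gene of CD49f, differed by 0.29 in HFD against control (limma adjusted p = 0.0168) and -0.40 in aged against HFD (0.00575). In HFD against control Itga3 was lower (-0.45, adjusted p = 0.0202) and Dst higher (0.53, 0.00245). Dst was also higher in aged against control (0.36, 0.0232). Cd34 was not among the markers examined. Transcripts of differentiating cells were present too, with 25 of 26 spinous and granular markers at a mean of at least 1 FPKM and a summed level of 8010 to 13443 FPKM per library. Their average level per library, the mean of log2(FPKM + 1) over these 25 genes, was 5.39, 5.21 and 4.69 for the control replicates in numbered order, 5.08, 5.51 and 4.54 for those on the high-fat diet, and 5.27, 5.34 and 5.16 for the aged mice. Control replicate 3 and HFD replicate 3 therefore stood lowest. The average hides single markers that differed between groups (limma adjusted p under 0.05). On the log2(FPKM + 1) scale, Krt1 (0.61), Calml3 (0.68), Spink5 (0.69) and Mt4 (0.75) were higher in aged against control. In HFD against control, Mt4 (0.74) and Tgm3 (0.53) were higher. Lce1a1 and Lce1b were lower in both but averaged under 1 FPKM there, so the control libraries brought them into the test. Markers of fat, endothelial and mural cells and melanocytes were all under 1 FPKM in every library. Of 13 sebaceous gland markers, 7 were under 1 FPKM in every library, among them Mc5r, Awat1, Awat2, Scd3, Plin5 and Dgat2l6. The sum of all 13 was 52.5 to 110 FPKM among control libraries, 62.6 to 81.9 among HFD and 127 to 173 among aged ones. Most of the higher aged sum was Krt79, which averaged 101 FPKM there, against 46.7 for control and 34.7 for HFD. Acsbg1 and Far1 made up most of the rest of the sum. Summed sweat gland markers, 10 genes of which 6 were under 1 FPKM everywhere, reached 26.2 to 28.3 FPKM in control libraries, 42.8 to 51.9 under HFD and 27.3 to 31 with age. The higher HFD sum came from Slc12a2, Acta2 and Ehf, while Krt7, Krt18, Krt19 and Aqp5 had lower means in HFD than in control. Langerhans and myeloid markers summed to at most 14.6 FPKM in a library, T cell markers to 53.3 and fibroblast markers to 6.64. Thy1 made up nearly all of the T cell sum, the defining Cd3d, Cd3e, Cd3g, Cd4, Cd8a and Trdc being at most 0.0588 FPKM in any library, and Dcn nearly all of the fibroblast sum. In bulk samples such as these, fewer cells of a type and less RNA per cell cannot be told apart. Estimated depth was 23.5 to 35.8 M reads per library.

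All 6 steps of the pathway were represented among the genes tested. The most abundant were the elongation reductase Tecr, with a mean of 106 FPKM over the 9 libraries, and the ceramide desaturase Degs1, with 112. The lowest of those tested was Aloxe3, a lipoxygenase of the acylceramide pathway, with 1.29. Elovl3 and Degs2 missed the expression minimum. Elovl3, an elongase of sebaceous gland and brown fat, was at 1.04, 0.189 and 0 FPKM in control, 0.114, 0.673 and 0 in HFD and 0.825, 1.0 and 0.892 in aged, so control replicate 3 and HFD replicate 3 were the libraries listed at 0. Degs2, which hydroxylates dihydroceramide to phytoceramide, was listed at 0 in every library except control replicate 2, at 0.0642 FPKM.

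**Figure D1:**
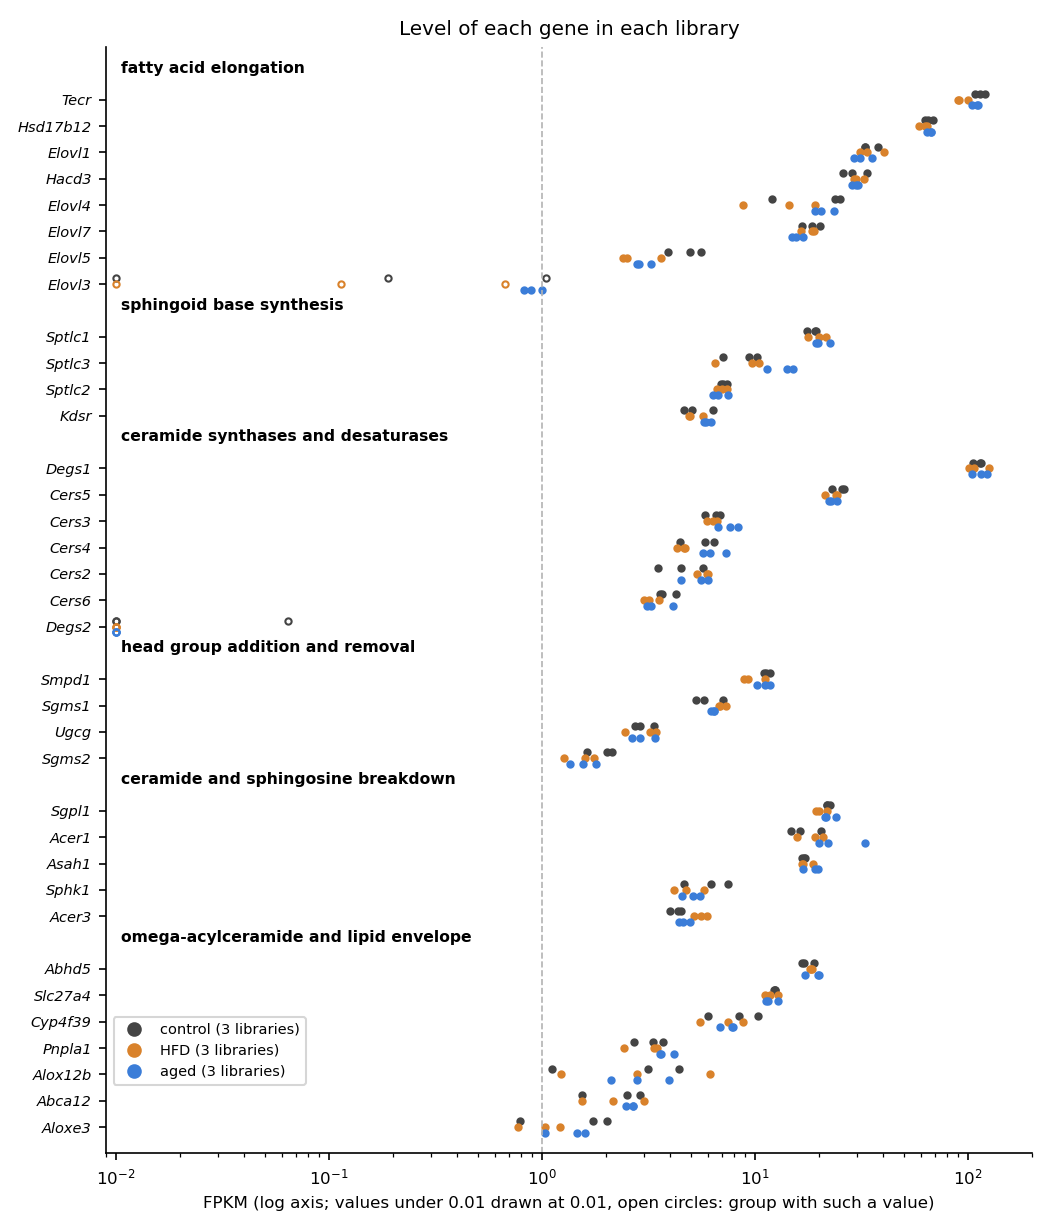
FPKM of each of the 35 genes in each library on a log axis, grouped by role, with control in grey, HFD in orange and aged in blue; values under 0.01 are drawn at 0.01, open circles mark a group that holds such a value, and the dashed line is 1 FPKM. Tecr and Degs1 lie near 100 FPKM in all 9 libraries, for most genes the 3 groups overlap, and Elovl3, Elovl4 and Alox12b are among those that spread widely within a group.

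Few of these genes differed between groups. Limma called 3 of 33 in HFD against control, at a Benjamini-Hochberg adjusted p under 0.05 over all genes tested: Acer3 rose, and Elovl5 and Tecr fell. That was 9.09% of the 33, against 17.0% of all genes tested (8.26% higher, 8.76% lower). In aged against control it called 1 of 33, Elovl5, which fell, 3.03% against 7.76% of all genes (4.01% higher, 3.74% lower). In aged against HFD it called 0 of 33, against 7.99% of all genes (3.54% higher, 4.45% lower), with 6 of 33 at an unadjusted p under 0.05 and a lowest adjusted p of 0.0595. The F test, which asks whether any of the 3 groups differ, called Elovl5, Tecr, Sptlc3 and Acer3, against 20.4% of all genes. Acer3 (adjusted p = 0.0450) lost that call in 9 of 9 fits that left out 1 library (0.0514 to 0.149). The median log2 fold change of the 33 genes was -0.04 in HFD against control, 0.02 in aged against control and 0.06 in aged against HFD, beside 0.01, -0.01 and 0.00 over all genes tested. Typical changes were small: the median size of the log2 fold change was 0.10, 0.11 and 0.10 in the 3 comparisons, beside 0.15, 0.13 and 0.12 for all genes. Groups did not overlap, with all 3 libraries of a group beyond all 3 of the other, for 1 gene higher and 4 lower in HFD against control (20.8% and 19.6% of all genes), 2 higher and 1 lower in aged against control (13.7% and 14.1%), and 6 higher and 2 lower in aged against HFD (13.9% and 15.9%). HFD and aged mice were compared with the same 3 control libraries, so the fall of Elovl5 in both rests on shared values.

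**Figure D2:**
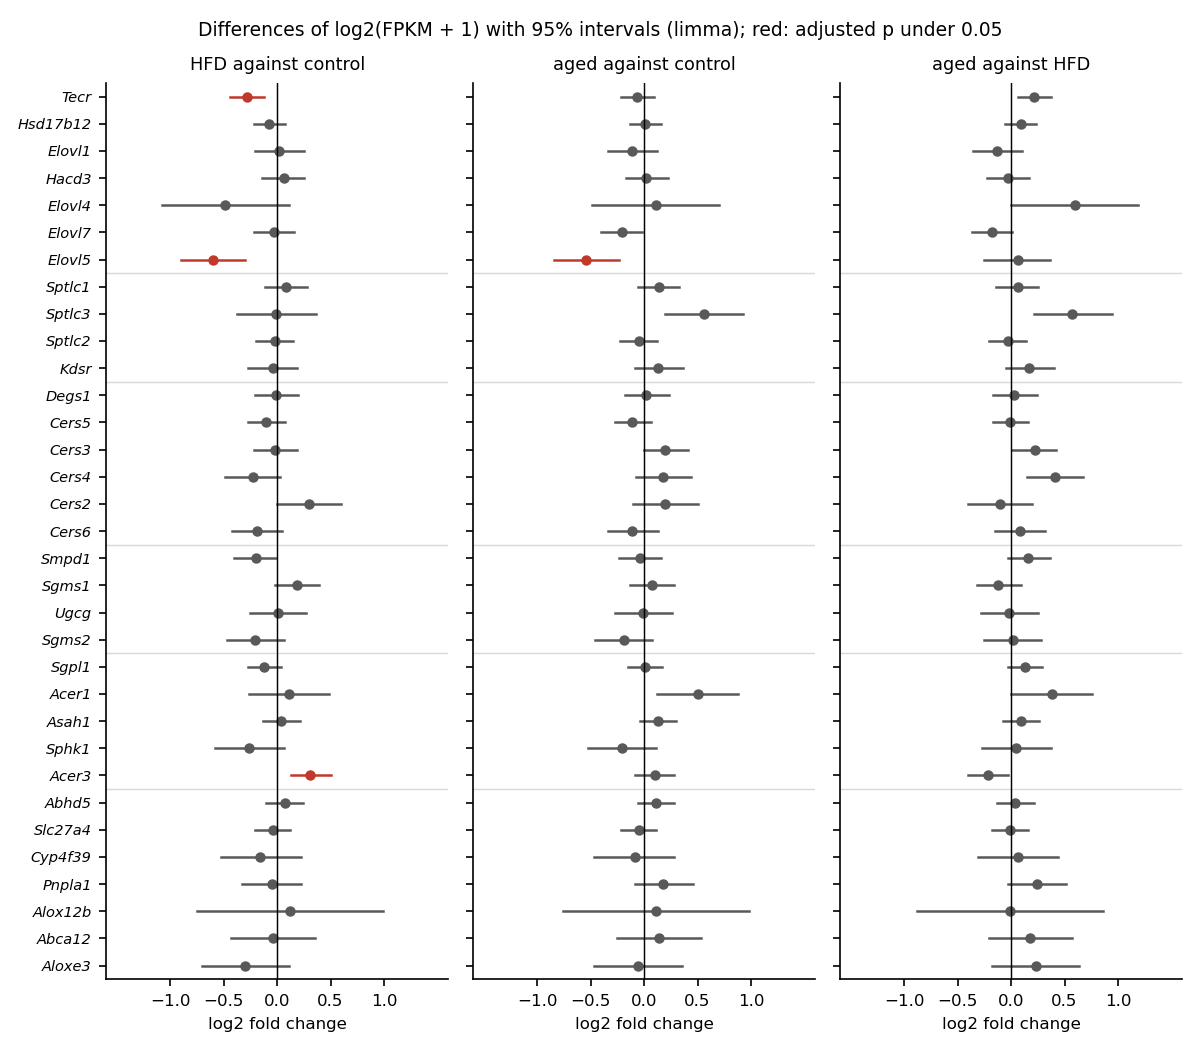
Log2 fold change of each tested gene, as a difference of log2(FPKM + 1) with its 95% interval from limma, for each of the 3 pairs of groups; red marks genes called at an adjusted p under 0.05. Elovl5 is called to the left of 0 in both comparisons with control, Tecr and Acer3 are called in HFD against control, and the widest intervals belong to Alox12b and Elovl4.

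The 4 genes that the F test called have start-site regions of different composition, shown here as the 250 bases before and 50 after the transcription start in RefSeq (build GRCm38.p6), 5′ to 3′ on the gene's own strand. Capitals mark matches on either strand to CACGTG (E-box), CCGCCC (GC box) or TGANTCA (AP-1). The Elovl5 window, chr9:77917115-77917414 on the plus strand, was 57.7% GC with 20 CpG and held 1 E-box. The Tecr window, chr8:83594442-83594741 on the minus strand, lies inside the GENCODE gene rather than at its start, and held 2 GC boxes. Acer3 has 2 windows on the minus strand. That at the start of the GENCODE gene, chr7:98321159-98321458, was 47.0% GC with 2 CpG and held 1 AP-1 match. The other, chr7:98309493-98309792, lies inside the gene and was 68.0% GC with 20 CpG and 3 GC boxes. The Sptlc3 window, chr2:139493663-139493962 on the plus strand, was 37.3% GC with 1 CpG and held no match to any motif searched.
Elovl5: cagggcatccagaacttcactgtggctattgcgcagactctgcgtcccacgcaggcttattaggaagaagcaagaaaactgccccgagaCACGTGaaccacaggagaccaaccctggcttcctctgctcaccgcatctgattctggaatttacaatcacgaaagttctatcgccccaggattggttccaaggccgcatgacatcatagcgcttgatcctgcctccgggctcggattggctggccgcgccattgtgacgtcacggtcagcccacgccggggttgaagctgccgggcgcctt
Tecr: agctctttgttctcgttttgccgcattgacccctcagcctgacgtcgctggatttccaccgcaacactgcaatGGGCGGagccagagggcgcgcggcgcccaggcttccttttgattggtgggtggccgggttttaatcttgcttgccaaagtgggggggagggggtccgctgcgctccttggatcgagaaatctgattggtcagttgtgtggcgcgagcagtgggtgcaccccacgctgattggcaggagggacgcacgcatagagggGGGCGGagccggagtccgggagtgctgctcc
Acer3, gene start: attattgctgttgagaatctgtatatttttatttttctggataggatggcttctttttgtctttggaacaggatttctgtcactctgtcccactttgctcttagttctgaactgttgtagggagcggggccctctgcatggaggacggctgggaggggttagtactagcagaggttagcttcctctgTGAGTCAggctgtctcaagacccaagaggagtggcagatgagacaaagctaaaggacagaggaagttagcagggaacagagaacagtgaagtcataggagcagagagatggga
Acer3, inside the gene: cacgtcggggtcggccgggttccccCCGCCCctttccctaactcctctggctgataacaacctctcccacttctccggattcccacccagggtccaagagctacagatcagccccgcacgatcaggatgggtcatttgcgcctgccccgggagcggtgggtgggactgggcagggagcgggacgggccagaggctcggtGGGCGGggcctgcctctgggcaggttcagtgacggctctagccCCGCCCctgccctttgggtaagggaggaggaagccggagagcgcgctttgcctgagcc
Sptlc3: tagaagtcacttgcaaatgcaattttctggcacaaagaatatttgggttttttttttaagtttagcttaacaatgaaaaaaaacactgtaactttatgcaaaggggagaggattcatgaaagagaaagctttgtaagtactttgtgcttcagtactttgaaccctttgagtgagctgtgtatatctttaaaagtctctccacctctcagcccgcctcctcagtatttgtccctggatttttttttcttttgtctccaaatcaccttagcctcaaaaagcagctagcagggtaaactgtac

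Among the 8 elongation genes, the elongase Elovl5 fell in HFD and in aged cells and the reductase Tecr fell in HFD. Elovl5 lengthens polyunsaturated fatty acids and lies on chromosome 9 (GRCm38, 77917364 to 77984519, plus strand). It was at 5.58, 4.95 and 3.90 FPKM in control, 2.52, 3.62 and 2.40 in HFD and 2.80, 3.24 and 2.85 in aged. All 6 HFD and aged values were below the lowest control value. Control cells averaged 4.81 ± 0.848 FPKM (SD, n = 3), HFD cells 2.85 ± 0.677 and aged cells 2.97 ± 0.242. On the log2(FPKM + 1) scale, which understates changes of low genes, Elovl5 fell by 0.60 ± 0.14 (SE) in HFD (95% interval -0.90 to -0.30, limma adjusted p = 0.0157) and by 0.54 ± 0.14 in aged (-0.84 to -0.24, adjusted p = 0.0368). Aged and HFD differed by 0.06 (-0.25 to 0.36, adjusted p = 0.835). Relative to Elovl1, an elongase of saturated and monounsaturated very-long-chain fatty acids, its FPKM ratio was 0.140 ± 0.0263 in control, 0.0804 ± 0.008 in HFD and 0.0936 ± 0.0122 in aged. The calls were close to the threshold. Without control replicate 2, HFD replicate 1 or HFD replicate 3 the adjusted p in HFD was 0.0577, 0.0574 and 0.0555, and without control replicate 1 or 2 or aged replicate 1, 2 or 3 that in aged was 0.0990, 0.109, 0.114, 0.0669 and 0.0566.

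Tecr encodes the reductase that completes each turn of the elongation cycle and lies on chromosome 8 (GRCm38, 83571698 to 83607971, minus strand). It was at 114, 120 and 108 FPKM in control, 100, 90.1 and 91.1 in HFD and 110, 104 and 112 in aged. Every HFD library was below every control and every aged library. Control cells averaged 114 ± 6.02 FPKM, HFD cells 93.9 ± 5.75 and aged cells 109 ± 4.38. Tecr fell by 0.28 ± 0.07 in HFD (95% interval -0.44 to -0.12, limma adjusted p = 0.0233), and its difference was -0.07 in aged against control (adjusted p = 0.587) and 0.21 in aged against HFD (adjusted p = 0.0957). Leaving out control replicate 1 or 2, or HFD replicate 2 or 3, gave HFD differences of -0.28, -0.24, -0.25 and -0.26 in that order, with adjusted p of 0.0535, 0.0896, 0.0886 and 0.0749. A small share of its sequence, 6.18% of stretches of 50 bases, also occurs in transcripts of other genes.

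The other elongation genes were not called in any comparison. Hsd17b12, the ketoacyl-CoA reductase of the cycle, kept within 58.8 to 68.6 FPKM, lowest in control replicate 3 and HFD replicate 3, and Hacd3, one of its dehydratases, within 26.0 to 33.6. Elovl1 was at 29.2 to 40.4 FPKM and Elovl7 at 15.0 to 20.2. Elovl7 had its lowest group mean in aged, 15.8 ± 0.906 FPKM against 18.5 ± 1.76 in control, a difference of -0.21 with an interval of -0.40 to -0.02 and an adjusted p of 0.154. Elovl4, which makes the ultra-long fatty acids of acylceramides, was at 23.8, 25.1 and 12.0 FPKM in control, 14.4, 19.2 and 8.83 in HFD and 23.5, 20.4 and 19.2 in aged. Control replicate 3 and HFD replicate 3 were the lowest, and the control and HFD groups overlapped. Its difference in HFD against control was -0.49 ± 0.27 (-1.08 to 0.11, adjusted p = 0.231) and in aged against HFD 0.60 ± 0.27 (adjusted p = 0.206).

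**Figure D3:**
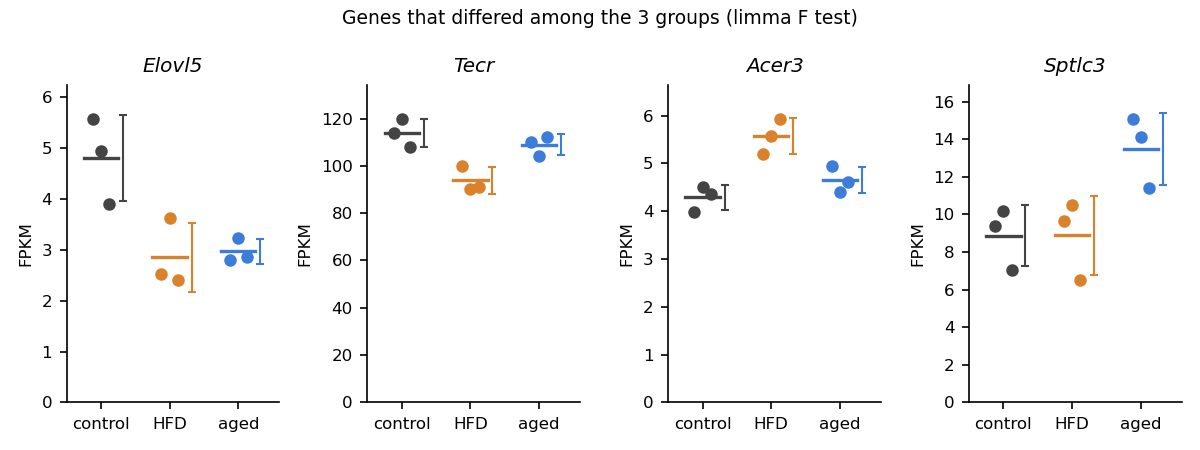
FPKM of Elovl5, Tecr, Acer3 and Sptlc3 in each of the 9 libraries, with the mean and SD of each group of 3. Elovl5 is lower in all HFD and aged libraries than in any control library, Tecr is lowest and Acer3 highest in the 3 HFD libraries, and Sptlc3 is highest in the 3 aged libraries.

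Of the 4 genes of sphingoid base synthesis, Sptlc3 stood apart in aged cells. Serine palmitoyltransferase pairs the shared subunit Sptlc1 with a catalytic subunit, Sptlc2 or Sptlc3, and Sptlc3 changes which fatty acids the enzyme accepts. Sptlc3, on chromosome 2 (GRCm38, 139493913 to 139637674, plus strand), was at 9.37, 10.2 and 7.06 FPKM in control, 9.66, 10.5 and 6.49 in HFD and 15.1, 14.1 and 11.4 in aged. Each aged library was above all 6 others, and control replicate 3 and HFD replicate 3 were the lowest. The means were 8.87 ± 1.62, 8.88 ± 2.11 and 13.5 ± 1.91 FPKM. The groups differed by the F test (adjusted p = 0.0423), while the single differences, 0.56 ± 0.17 in aged against control (0.20 to 0.93) and 0.57 ± 0.17 in aged against HFD (0.21 to 0.94), had adjusted p of 0.0631 and 0.0595. The F test lost the call without control replicate 1, 2 or 3, HFD replicate 1, or aged replicate 1 or 2 (adjusted p = 0.0591, 0.0530, 0.0634, 0.0600, 0.138 and 0.117). With control replicate 3 and HFD replicate 3 both left out, the difference in aged against control was 0.42 (adjusted p = 0.0967) and the F test's adjusted p was 0.0731.

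The other subunits of the enzyme were not called. Sptlc1, the most abundant gene of this step, was at 17.5, 19.1 and 19.3 FPKM in control, 20.1, 21.6 and 17.7 in HFD and 22.6, 19.8 and 19.4 in aged, with an adjusted p of 0.354 in aged against control. Sptlc2 kept within 6.36 to 7.48 FPKM, and its differences had intervals of -0.20 to 0.15 in HFD and -0.23 to 0.12 in aged against control. The ratio of Sptlc3 to Sptlc2 in FPKM was 1.27, 1.48 and 0.993 in control, 1.38, 1.42 and 0.975 in HFD and 2.02, 2.22 and 1.71 in aged. Aged ratios thus lay above all others. Kdsr, which reduces the first product of the enzyme, was at 4.66 to 6.36 FPKM and was not called.

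The 6 tested ceramide synthases and desaturases gave no call in any comparison. Degs1, which introduces the double bond that turns dihydroceramide into ceramide, was at 115, 114 and 106 FPKM in control, 107, 126 and 101 in HFD and 115, 123 and 104 in aged. Its difference was -0.01 in HFD (-0.21 to 0.20) and 0.02 in aged against control (-0.18 to 0.23). Among the synthases, Cers5, which prefers shorter acyl chains, was the most abundant at 21.4 to 26.1 FPKM and exceeded Cers3 in 9 of 9 libraries. Cers3, the synthase needed for acylceramides, was at 5.80 to 8.36 FPKM, and its highest group mean was 7.55 ± 0.840 in aged, against 6.41 ± 0.560 in control and 6.33 ± 0.349 in HFD (adjusted p = 0.195 and 0.176). Cers4, a synthase expressed in skin and its appendages, was at 5.84, 6.41 and 4.46 FPKM in control, 4.64, 4.31 and 4.72 in HFD and 7.34, 6.16 and 5.69 in aged. All aged values exceeded all HFD values, and the difference of 0.41 ± 0.12 (0.15 to 0.67) had an adjusted p of 0.0600. Cers2, which makes very-long-chain ceramides, was at 3.51 to 6.03 FPKM and Cers6, which prefers shorter chains, at 3.03 to 4.28.

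None of the 4 head group genes was called. Smpd1, the lysosomal sphingomyelinase, was the most abundant, at 11.8, 11.3 and 11.0 FPKM in control, 9.29, 11.1 and 8.87 in HFD and 11.8, 10.2 and 11.1 in aged. Its HFD difference was -0.20 (-0.40 to -0.01, adjusted p = 0.137). Of the sphingomyelin synthases, Sgms1 of the Golgi was at 5.28 to 7.29 FPKM and Sgms2 of the plasma membrane at 1.27 to 2.13. Ugcg, the glucosylceramide synthase, was at 2.45 to 3.45 FPKM, and its differences lay between -0.02 and 0.01 in the 3 comparisons, each with an interval of at most 0.28 to either side of 0.

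Among the 5 genes that break down ceramide and sphingosine, the ceramidase Acer3 rose in HFD. Acer3, an alkaline ceramidase of the Golgi and endoplasmic reticulum, lies on chromosome 7 (GRCm38, 98206389 to 98321208, minus strand). It was at 3.99, 4.51 and 4.36 FPKM in control, 5.20, 5.57 and 5.94 in HFD and 4.94, 4.41 and 4.61 in aged. All 3 HFD libraries were above all 6 others. The means were 4.29 ± 0.265, 5.57 ± 0.373 and 4.65 ± 0.268 FPKM, and Acer3 rose by 0.31 ± 0.08 in HFD (0.13 to 0.50, limma adjusted p = 0.0267). Its difference was 0.10 in aged against control (adjusted p = 0.493) and -0.22 in aged against HFD (adjusted p = 0.135). The call was lost when any control library, or HFD replicate 2 or 3, was left out (adjusted p = 0.0747, 0.0542, 0.0539, 0.0778 and 0.0911), and with libraries scaled to equal total FPKM (0.27, adjusted p = 0.0525).

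Acer1, the alkaline ceramidase of differentiating epidermis, was at 16.2, 20.5 and 14.7 FPKM in control, 20.8, 19.2 and 15.8 in HFD and 33.0, 22.0 and 20.0 in aged. Aged replicate 1 was the highest, control replicate 3 and HFD replicate 3 were the lowest, and the other aged libraries overlapped the rest. The difference in aged against control was 0.50 ± 0.17 (0.12 to 0.88, adjusted p = 0.0978). Sgpl1, the lyase that cleaves sphingosine 1-phosphate irreversibly, was the most abundant gene of this step on average, at 21.8, 21.9 and 22.5 FPKM in control, 19.9, 21.7 and 19.4 in HFD and 21.3, 21.5 and 24.0 in aged. Its level did not stand clear of Acer1, which it exceeded in 6 of 9 libraries. The HFD and control values of Sgpl1 did not overlap, as was so for 19.6% of all genes tested in that direction, and the difference of -0.12 (-0.27 to 0.04) had an adjusted p of 0.290. Asah1, the lysosomal acid ceramidase, was at 16.6 to 19.8 FPKM and Sphk1, a sphingosine kinase, at 4.17 to 7.48, with no call for either.

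Some sebaceous markers moved with the values of Sptlc3, Cers4, Acer1 and Elovl3, and their part in those was not tested. Krt79, a keratin of sebaceous ducts, was at 54.1, 65.9 and 20.2 FPKM in control, 40.0, 41.1 and 23.0 in HFD and 121, 86.8 and 94.4 in aged, and rose by 1.54 ± 0.35 in aged against HFD (limma adjusted p = 0.0237). Like Sptlc3, it was highest in the 3 aged libraries and lowest in control replicate 3 and HFD replicate 3. Cidea, a lipid droplet protein of sebocytes, rose by 1.50 ± 0.27 in aged against HFD (adjusted p = 0.00783). Cidea averaged 2.91 FPKM across the aged libraries, against 1.25 for control and 0.359 for HFD. Without the aged libraries its mean is below the 1 FPKM minimum, so the group where Cidea is high brought it into the test. Of the other 2 sebaceous markers tested, Far1 did not follow. It fell by 0.47 in aged against HFD (adjusted p = 0.00532) and rose by 0.54 in HFD against control (adjusted p = 0.0023). Acsbg1 was not called, but it too had its highest mean in aged, 31.3 FPKM against 25.4 for control and 24.9 for HFD. Its difference in aged against HFD was 0.31 (0.01 to 0.60, adjusted p = 0.193). Sptlc3, Cers4, Acer1 and Elovl3 had their highest group means in aged cells as well, but so did others, such as Pnpla1, Elovl4 and Cers3. Over the 9 libraries, on the log2 scale, the Pearson correlation with Krt79 was 0.93 for Sptlc3, 0.85 for Cers4 and 0.80 for Acer1. It was as high for Pnpla1 (0.85) and Elovl4 (0.81). With the average level of the spinous and granular markers it was 0.76 for Sptlc3, 0.40 for Cers4 and 0.47 for Acer1. For Pnpla1 and Elovl4 it was 0.83 and 0.88, and the part of differentiating cells was not tested either.

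The 7 omega-acylceramide genes held no call in any comparison, with lowest adjusted p of 0.290 in HFD against control, 0.374 in aged against control and 0.264 in aged against HFD. Alox12b, Aloxe3, Abca12 and Cyp4f39 varied widely between libraries of the same group. Pnpla1 varied less, with an SD of 0.166 on the log2 scale, larger than in 76.8% of all genes tested. For Alox12b, Abca12, Cyp4f39 and Pnpla1 the spread was smaller among aged libraries than among control or HFD ones. Alox12b and Aloxe3 are the lipoxygenases that oxidise the linoleate of acylceramides in sequence. Alox12b was at 4.38, 3.14 and 1.11 FPKM in control, 2.78, 6.13 and 1.23 in HFD and 2.12, 3.95 and 2.80 in aged. Control replicate 3 and HFD replicate 3 were below all others, and all 3 groups overlapped. The difference was 0.12 in HFD (-0.75 to 0.99) and 0.11 in aged against control (-0.76 to 0.98), so changes within these bounds are not excluded. Aloxe3 was at 1.73, 2.01 and 0.791 FPKM in control, 1.03, 1.22 and 0.775 in HFD and 1.46, 1.03 and 1.59 in aged, again lowest in the same pair of libraries (HFD difference -0.30, interval -0.70 to 0.11).

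Abca12, which loads glucosylceramide into lamellar granules, was at 2.90, 2.50 and 1.54 FPKM in control, 2.15, 3.0 and 1.55 in HFD and 2.67, 2.48 and 2.68 in aged. Pnpla1, the transacylase that completes acylceramide, was at 3.69, 3.31 and 2.70 FPKM in control, 3.35, 3.48 and 2.43 in HFD and 3.64, 3.60 and 4.15 in aged. Cyp4f39, the mouse fatty acid omega-hydroxylase, was at 8.44, 10.3 and 6.02 FPKM in control, 7.51, 8.76 and 5.52 in HFD and 7.84, 7.87 and 6.89 in aged. In each of these genes control replicate 3 and HFD replicate 3 were the lowest libraries. The differences in HFD against control were -0.04 for Abca12 (-0.43 to 0.35), -0.05 for Pnpla1 (-0.33 to 0.22) and -0.16 for Cyp4f39 (-0.53 to 0.22). In aged against control they were 0.14 (-0.25 to 0.53), 0.18 (-0.09 to 0.46) and -0.09 (-0.47 to 0.28).

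The remaining acylceramide genes were more even. Abhd5, a lipase coactivator that works with Pnpla1, was the most abundant of the 7, at 19.0, 16.6 and 17.0 FPKM in control, 18.4, 18.5 and 18.2 in HFD and 19.7, 19.9 and 17.2 in aged. Slc27a4, a fatty acid transport protein that activates long fatty acids, was at 12.4, 12.4 and 12.3 FPKM in control, 11.2, 12.9 and 11.8 in HFD and 11.3, 11.5 and 12.9 in aged. Neither was lowest in control replicate 3 and HFD replicate 3. Their intervals were narrow: -0.10 to 0.24 for Abhd5 and -0.21 to 0.12 for Slc27a4 in HFD, and -0.06 to 0.28 and -0.22 to 0.11 in aged against control. The SD between libraries of a group, on the log2 scale, was 0.660 for Alox12b and 0.451 for Elovl4, larger than in 99.7% and 99.1% of all genes tested, but 0.087 for Abhd5 and 0.078 for Slc27a4. Its median was 0.266 over the 7 acylceramide genes, 0.129 over the 33 genes and 0.119 over all genes tested.

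Control replicate 3 and HFD replicate 3 were the 2 lowest of the 9 libraries for 9 of the 33 genes: Aloxe3, Alox12b, Abca12, Pnpla1, Cyp4f39, Elovl4, Hsd17b12, Sptlc3 and Acer1. The same held for 324 of all genes tested (3.13%), and for 15 of the 25 spinous and granular markers. The count of markers largely follows from their low average in these libraries and is no independent support. Those libraries were the 2 highest for 0 of the 33 genes, beside 2.66% of all genes. These 5 acylceramide genes and Elovl4 were thus low in the libraries with the lowest level of differentiation markers, and the part of cell composition in this was not tested. With both libraries left out, an alternative chosen after seeing the data, 1 of the 33 genes was called in HFD against control, 1 in aged against control and 0 in aged against HFD, beside 5.83%, 2.31% and 3.51% of all genes. Elovl5 was the gene called in both, at -0.63 in HFD (adjusted p = 0.0393) and -0.66 in aged (adjusted p = 0.0405). Tecr, at -0.30 (adjusted p = 0.0825), and Acer3, at 0.28 (adjusted p = 0.140), were no longer called in HFD.

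**Figure D4:**
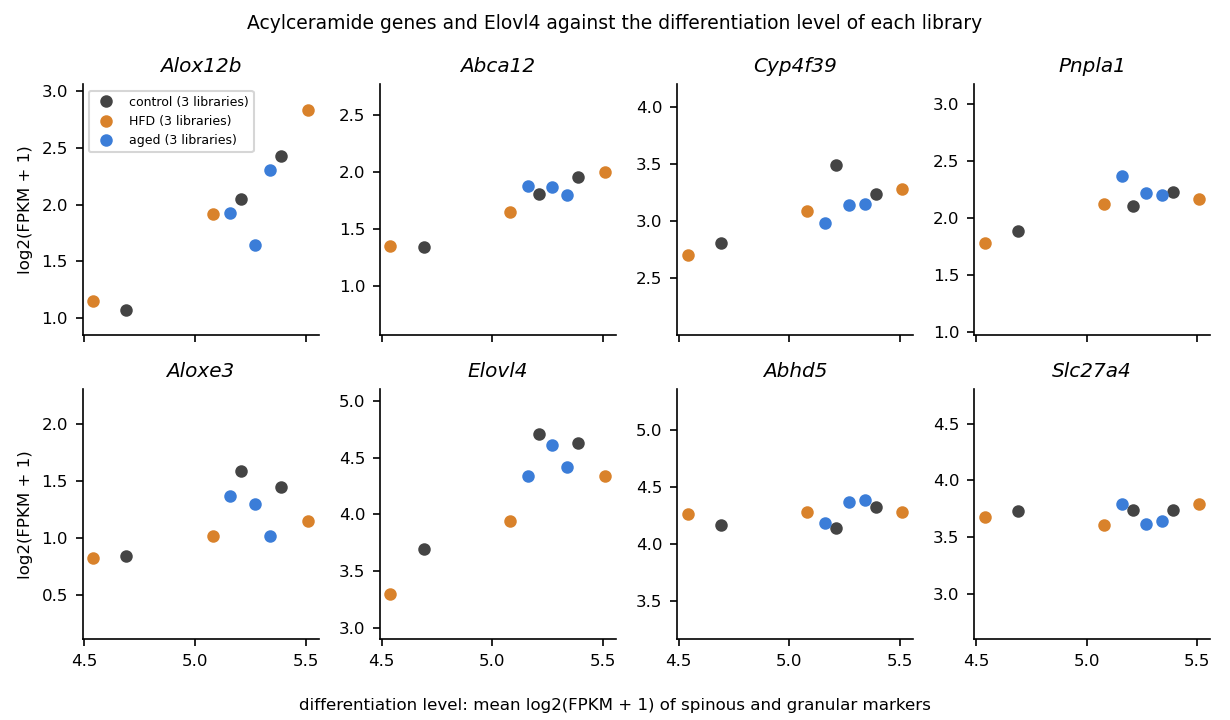
Log2(FPKM + 1) of 8 genes in each library against the mean log2 level of 25 spinous and granular markers in the same library, control in grey, HFD in orange and aged in blue. Control replicate 3 and HFD replicate 3, at marker levels of 4.69 and 4.54, are the lowest points for Alox12b, Abca12, Cyp4f39, Pnpla1, Aloxe3 and Elovl4, while Abhd5 and Slc27a4 show no such drop.

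Elovl4, Alox12b and Abca12, which dropped together in those libraries, have start-site windows of different composition (RefSeq, GRCm38.p6; capitals mark the same motifs). The Elovl4 window, chr9:83806256-83806555 on the minus strand, was 71.0% GC and held 1 E-box and 2 GC boxes that share letters. The Alox12b window, chr11:69156822-69157121 on the plus strand, was 66.0% GC and held 3 GC boxes. The Abca12 window, chr1:71414861-71415160 on the minus strand, was 51.3% GC and held no match.
Elovl4: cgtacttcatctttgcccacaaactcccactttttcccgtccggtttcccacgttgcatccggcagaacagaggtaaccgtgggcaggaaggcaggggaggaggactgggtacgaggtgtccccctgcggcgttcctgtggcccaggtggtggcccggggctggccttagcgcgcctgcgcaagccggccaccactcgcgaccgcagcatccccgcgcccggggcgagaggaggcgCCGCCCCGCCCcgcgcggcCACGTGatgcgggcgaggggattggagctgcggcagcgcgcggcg
Alox12b: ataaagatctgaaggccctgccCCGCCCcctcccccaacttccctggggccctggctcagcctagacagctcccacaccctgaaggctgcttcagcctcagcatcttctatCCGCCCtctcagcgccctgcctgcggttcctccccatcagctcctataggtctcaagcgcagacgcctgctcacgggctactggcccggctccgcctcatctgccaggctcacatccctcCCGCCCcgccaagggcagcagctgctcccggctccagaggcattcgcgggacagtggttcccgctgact
Abca12: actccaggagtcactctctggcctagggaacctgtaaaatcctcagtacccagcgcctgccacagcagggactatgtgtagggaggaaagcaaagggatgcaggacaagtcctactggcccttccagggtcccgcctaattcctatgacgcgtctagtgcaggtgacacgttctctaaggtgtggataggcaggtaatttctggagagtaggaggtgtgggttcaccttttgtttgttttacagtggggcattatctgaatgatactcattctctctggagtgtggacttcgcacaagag

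Windows were found for 32 of the 35 genes, and 6 motifs were searched on both strands. The E-box CACGTG was in at least 1 window of 8 of 32 genes (25.0%), beside 9.2% of the 16770 genes with a window. The nuclear receptor half-site AGGTCA was in 8 (25.0%, beside 16.4%), the AP-1 motif TGANTCA in 4 (12.5%, beside 8.2%) and the GC box CCGCCC in 22 (68.8%, beside 50.7%). The sterol regulatory element TCACNCCAC and the grainyhead motif AACCAGTT were in none of these windows, beside 1.4% and 0.9%. Windows of these genes had a median of 61.0% GC, beside 57.0% over all windows. A match is a run of letters only, and genes with 2 or more windows had more chances to hold one.

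Base composition moved with the HFD comparison over the whole table and touches the called genes. Sorted by GC content of the transcript, all genes tested had a median log2 fold change of 0.15 in the lowest of 8 bins, at 40.2% GC, and of -0.21 in the highest, at 59.0% GC. In aged against control the same bins ran from 0.07 to -0.13. Tecr has 56.9% GC and Acer3 40.9%, so each differed in the direction of its bin, while Elovl5, at 44.8%, fell against it. After a correction for GC in each library, Tecr was at -0.15 (adjusted p = 0.228) and Acer3 at 0.18 (adjusted p = 0.218) in HFD against control, neither called. Elovl5 was at -0.69 (adjusted p = 0.00955) in HFD and -0.60 (adjusted p = 0.0228) in aged. With the correction, 11.2%, 7.47% and 8.19% of all genes were called in the HFD-control, aged-control and aged-HFD comparisons. Elovl7 was then also called lower in aged against control, and Sptlc3 (0.62, adjusted p = 0.0355) and Cers4 (0.45, adjusted p = 0.0295) were called higher in aged against HFD.

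**Figure D5:**
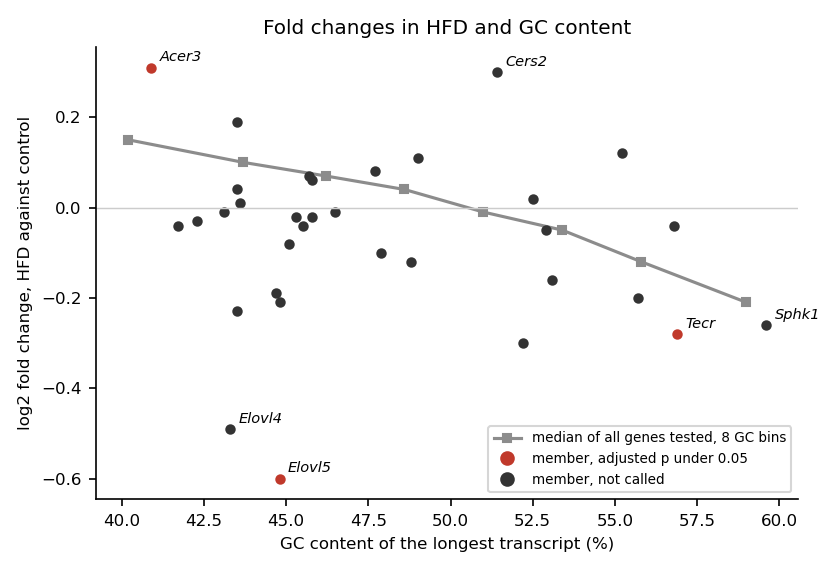
Log2 fold change in HFD against control of each tested barrier lipid gene against the GC content of its transcript in percent, with the median of all genes tested in 8 bins of GC content. The bin medians run from 0.15 at 40.2% GC down to -0.21 at 59.0%; Tecr lies low at 56.9%, Acer3 high at 40.9%, and Elovl5 far below the line at 44.8%.

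Beyond these genes, 55 others of sphingolipid, fatty acid and barrier metabolism were in the table, and 39 were tested. In HFD against control 1 was called higher and 2 lower, 7.69% beside the 17.0% of all genes. Sphk2, the second sphingosine kinase, was at 17.1, 16.9 and 19.0 FPKM in control, 11.9, 10.7 and 12.5 in HFD and 12.7, 13.5 and 13.9 in aged, so all control libraries were above the rest. It fell by 0.56 ± 0.08 in HFD (limma adjusted p = 0.0022) and by 0.38 ± 0.08 in aged (adjusted p = 0.0194). Smpd2, a neutral sphingomyelinase, fell in HFD by 0.36 ± 0.07 (adjusted p = 0.0101), and Plin2, a lipid droplet coat protein, rose by 0.45 ± 0.11 (adjusted p = 0.0171). In aged against control, Abcg1, a cholesterol exporter, rose by 0.53 ± 0.12 (adjusted p = 0.0219), so that 1 was called higher and 1 lower, 5.13% beside 7.76% of all genes. With the GC correction the HFD differences were -0.39 for Sphk2, -0.28 for Smpd2 and 0.48 for Plin2, all still called. In aged against control Sphk2 was then at -0.29 (limma adjusted p = 0.0472) and Abcg1 at 0.55. With a replicate block added to the correction, Sphk2 lost its call in aged (adjusted p = 0.0531). Leaving out 1 library at a time kept the HFD calls of Sphk2 and Smpd2 in 9 of 9 fits. Plin2 lost its call when control replicate 2 was left out, or HFD replicate 1 (highest adjusted p 0.0622), Sphk2 its call in aged without control replicate 3 or aged replicate 1 or 2 (up to 0.0725), and Abcg1 without control replicate 1 or 2 or aged replicate 1 (up to 0.0780).

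In aged against HFD 4 of the 39 were called higher and 0 lower, 10.3% beside 7.99% of all genes. Fa2h, which makes the 2-hydroxy fatty acids of ceramides, was at 1.50, 1.42 and 0.426 FPKM in control, 0.702, 0.994 and 0.116 in HFD and 1.75, 2.37 and 2.62 in aged, and rose by 1.05 ± 0.25 (adjusted p = 0.0255). The mean of Fa2h without the aged libraries is under the 1 FPKM minimum, so the group where it is high brought it into the test and this count. Elovl6, which elongates palmitate, rose by 0.90 ± 0.22 (adjusted p = 0.0305). Nipal4, an ichthyosis gene of the acylceramide pathway, rose by 0.47 ± 0.13 (adjusted p = 0.0447), and Acsl4, an acyl-CoA synthetase, by 0.45 ± 0.11 (adjusted p = 0.0337). Each of these calls depended on single libraries. Fa2h lost it without HFD replicate 1 or 3 or aged replicate 2 or 3 (adjusted p up to 0.0856) and with a pseudocount of 0.1 in place of 1 (2.01, adjusted p = 0.0523), Elovl6 without HFD replicate 2 or 3 or aged replicate 1 or 3 (up to 0.108), Acsl4 without any 1 HFD library or aged replicate 1 or 2 (up to 0.105), and Nipal4 in every such fit except that without control replicate 1 (up to 0.118). Fa2h, like Sptlc3 and Krt79, was lowest in control replicate 3 and HFD replicate 3. With these libraries both left out, Elovl6, Nipal4 and Acsl4 were no longer called in aged against HFD, nor Plin2 in HFD against control or Sphk2 in aged against control.

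Of 18 tested transcription regulators of epidermal lipid and barrier genes, 0 were called higher and 5 lower in HFD: Srebf1 (-0.59), Srebf2 (-0.63), Nr1h2 (-0.42), Grhl1 (-0.55) and Arntl (-1.02), 27.8% beside 17.0% of all genes. Srebf1, which drives fatty acid synthesis genes, was at 46.5, 58.1 and 60.9 FPKM in control, 33.7, 35.1 and 39.4 in HFD and 56.3, 48.2 and 58.8 in aged. It was lowest in the 3 HFD libraries, and Elovl5 was low in HFD and aged libraries alike. A link between Srebf1 and Elovl5 was not tested. In aged against control Arntl was called lower (-0.81). In aged against HFD 3 were called higher, Srebf1 (0.58), Srebf2 (0.42) and Klf4 (0.46), and 0 lower, 16.7% beside 7.99% of all genes. The calls of Srebf1 in both comparisons, of Srebf2 in both and of Arntl in HFD held in 9 of 9 fits that left out 1 library. Nr1h2 lost its call when HFD replicate 1 or 2, or control replicate 2 or 3, was left out (highest adjusted p 0.101) and with the GC correction, and Grhl1 when HFD replicate 2 or 3, or control replicate 1 or 2, was left out (0.0841). With the GC correction Srebf1 was at -0.43 in HFD, Srebf2 at -0.47, Grhl1 at -0.57 and Arntl at -1.06, all still called. Arntl lost its call in aged without control replicate 2 or 3 or aged replicate 1 (adjusted p up to 0.0788), and Klf4 without HFD replicate 1 or 2 or any 1 aged library (up to 0.12). With control replicate 3 and HFD replicate 3 both left out, Srebf2 in aged against HFD, Nr1h2 in HFD and Arntl in aged were no longer called (adjusted p = 0.0564, 0.0957 and 0.0843).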

How the data were processed

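The authors deposited 1 table of FPKM for the 9 libraries; the submitters' processing notes name the mm10 genome, HTSeq 0.11.2, STAR 2.6.0c, cutadapt and DESeq2 1.30.0, and the tool and gene lengths behind the FPKM and any use of strand in counting are not given in the sources used here. Per the labels' protocols, libraries were stranded mRNA libraries. The genes and lists were chosen with earlier results of these data known. The test was limma's (version 3.58.1, under R 4.3.3; eBayes with trend, two-sided) on log2(FPKM + 1), for genes averaging 1 FPKM or more, with a group mean fitted to all 9 libraries (degrees of freedom: 6 residual, 5.5 prior) and Benjamini-Hochberg adjustment over all 10367 genes; called means an adjusted p under 0.05. Intervals are 95% intervals from this fit. The steps were tested on simulated data. The result for 1 regulator is not reported here. Values and tests are printed for each of the 35 genes that was called, for the most abundant gene of each role and for the acylceramide genes; other genes named with single values were picked after their values were seen. Depth came from the step that 1 read makes in low values (97.5% to 98.2% of values up to 30 reads were whole within 0.02). Positions and GC content came from GENCODE M21 (GRCm38; 22285 of 22399 rows matched) and promoter windows from RefSeq. The GC correction subtracted a loess curve (span 0.5) per library. In 10 of the 35 genes (Elovl1, Elovl3, Cers2, Cers4, Degs2, Sgms1, Acer1, Sphk1, Pnpla1 and Abhd5) exons overlap a gene on the opposite strand, so their reads may not be separable. Other settings tried were a pseudocount of 0.1, no filter, a minimum of 5 FPKM, quantile, median-ratio and total-FPKM scaling, library weights, robust eBayes, a replicate block, fits of 6 libraries and leaving out libraries.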

Additional observations from a re-analysis of the deposited data

How the results depend on the processing

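The 3 genes called in HFD against control became 1 with a minimum mean of 5 FPKM, 1 with the GC correction and 1 with control replicate 3 and HFD replicate 3 both left out, and 0 to 4 when 1 library was left out; Elovl5 and Acer3 are not tested at the 5 FPKM minimum. The 1 gene called in aged against control became 0 with no filter, with a minimum of 5 FPKM and with library weights, 2 with the GC correction and in the fit of only the 6 libraries compared, and 0 to 2 with 1 library left out. The 0 genes called in aged against HFD became 2 with the GC correction, 1 with library weights, 1 in the fit of only the 6 libraries, and 0 to 1 with 1 library left out. The F test's 4 genes became 1 with no filter, 2 with a minimum of 5 FPKM, 1 with both low libraries left out, and 0 to 4 with 1 library left out. Where not stated, the cause was not tested. Libraries of different groups share only a number: same-numbered libraries deviated with r of -0.0519 to 0.274, 5 of 9 pairs over 0.1, and 5 of 9 libraries correlated best with their own number. The replicate block called 3 genes in HFD against control, 3 in aged against control (Elovl5, Sptlc3 and Acer1) and 3 in aged against HFD (Elovl4, Sptlc3 and Cers4); with the replicate block and the GC correction together, HFD against control gave 2 (Elovl4 and Elovl5, without Tecr and Acer3), and the comparisons of aged with control and with HFD 3 each. Without a filter Elovl5 had an adjusted p of 0.0503 in HFD and 0.0913 in aged. Of 2835 single values under other settings, 2741 kept direction and side of the threshold, 61 lost and 33 gained a call, and 0 changed direction past the threshold. Over all genes, counts ranged from 604 to 2388 in HFD against control (1764 as reported), 239 to 1254 in aged against control (804) and 364 to 1138 in aged against HFD (828). Some of the least abundant genes rest on few reads, such as Alox12b with an estimated 77 to 404 reads per library. The part of depth in their spread was not tested.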
